A study of Homo sapiens with 9 samples.

Results

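The death-associated protein kinases (DAPK family) and the core subunits of protein phosphatase 2A (PP2A) were examined in U251 cells, an established human glioblastoma line, after knockdown of the RNA-binding protein PTBP1. The 10 genes were chosen by name: the kinases DAPK1, DAPK2, DAPK3, STK17A and STK17B, and the PP2A subunits PPP2CA, PPP2CB, PPP2R1A, PPP2R1B and PPP2R2B. All 10 are among the 22295 entries of the expression table, and 10 of 10 passed the filter on low values (a mean of 0.1 FPKM or more), which left 15551 entries for the test. The study had picked DAPK1 as a candidate on these same libraries, so its change here is not independent evidence. FPKM counts sequenced fragments relative to the length of the transcript and to the size of the library, so levels of different genes can be set side by side.

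The series holds 3 groups of 3 RNA-seq libraries. The sh-Luci-3d cells carried a lentivirus with a control sh-RNA against luciferase and were collected 3 days post infection (dpi). The sh-Ptbp1-3d and sh-Ptbp1-7d cells carried an sh-RNA against PTBP1 and were collected at 3 and 7 dpi. Both vectors also held an M-cherry marker, and the sh-RNA against PTBP1 was a single one that the study selected for its knockdown. By the study's methods, cells were moved at 2 dpi to a neuronal induction medium with N2, B27, forskolin, which raises cAMP, and dorsomorphin, an inhibitor of AMP-activated kinase and BMP receptors. The series holds no control at 7 dpi. In each comparison with sh-Ptbp1-7d the knockdown, the time after infection and the time in this medium therefore cannot be told apart. The labels do not say whether the libraries of a group came from separate cultures, and p-values therefore measure only the spread between these libraries, which may be technical.

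DAPK kinases are serine/threonine kinases known for promoting cell death and autophagy and for phosphorylating myosin light chains. DAPK1 is switched on by calcium and calmodulin, and it inhibits itself by phosphorylating a residue in its calmodulin-binding segment. PP2A removes this phosphate, and netrin receptors of the UNC5 family can hold DAPK1 and PP2A in one complex when their ligand is absent. A PP2A enzyme is made of a catalytic subunit (PPP2CA or PPP2CB), a scaffold (PPP2R1A or PPP2R1B) and 1 of many regulatory subunits, of which PPP2R2B is best known from brain. FPKM per gene measures mRNA and carries no information on phosphorylation, enzyme activity or the use of single exons.

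The 3 stretches of sequence shown each come from upstream of a RefSeq transcript start and inside the annotated span of its gene. DAPK1 and DAPK2 were selected as the members that rose. PPP2CA was selected as the member, of those searched, with a cAMP response element in a window. The cells were given forskolin, and a link to this element was not tested. The stretches are RefSeq sequences on GRCh38.p14, each given on the strand of its gene. The DAPK1 stretch is chr9:87497617-87497680 (plus strand), the part of its upstream window outside annotated exons. The DAPK2 stretch is chr15:64046486-64046735 (minus strand), and capitals in both mark CG dinucleotides. The PPP2CA stretch is chr5:134226084-134226113 (minus strand), and its capitals mark the element TGACGTCA.
DAPK1: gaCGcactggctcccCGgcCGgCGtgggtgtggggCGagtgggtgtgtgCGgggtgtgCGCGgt
DAPK2: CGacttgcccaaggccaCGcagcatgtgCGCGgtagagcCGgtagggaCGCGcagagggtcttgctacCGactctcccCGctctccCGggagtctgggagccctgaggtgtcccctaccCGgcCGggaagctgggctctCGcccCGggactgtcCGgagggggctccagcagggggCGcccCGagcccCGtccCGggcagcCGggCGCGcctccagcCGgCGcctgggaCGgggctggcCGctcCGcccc
PPP2CA: gacgccgggcgTGACGTCAccacgcccggc

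The upstream windows held 250 bases before a RefSeq start, and 9 of the 10 members matched the table, with 13 windows in all. PPP2CB had no match and was not searched. The first DAPK1 window held 32 CG dinucleotides, more than 90.5% of the 35116 promoters in the table, whose median was 11. Its other window held 26, more than 80.4% of them. The DAPK2 window held 27, and windows of the other members held from 4 (PPP2R2B) to 35 (STK17B), on both sides of DAPK1 and DAPK2. The 5 motifs searched on both strands were TGACGTCA (cAMP response element), CACGTG (E-box), TTCNNNGAA (STAT site), CCAAT and the interferon-stimulated response element. The cAMP response element was in 1 of the 13 windows, 22 to 29 bases before a PPP2CA start, and in 1.65% of all promoters. Another PPP2CA window lacked it. CCAAT was in 6 of the 13 windows, 1 each of DAPK1, DAPK3, STK17B, PPP2CA, PPP2R1A and PPP2R2B, and in 32.0% of all promoters. The other windows of DAPK1, PPP2CA, PPP2R1A and PPP2R2B lacked CCAAT. A match describes letters in these windows and not a bound site.

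The libraries were first checked for the knockdown and the cell type. PTBP1 was at 115.7 ± 7.58 FPKM in sh-Luci-3d, 63.9 ± 2.67 in sh-Ptbp1-3d and 50.5 ± 0.645 in sh-Ptbp1-7d (SD, n = 3 each), with no overlap between groups. At 3 dpi it fell by 0.85 on the log2 scale (limma adjusted p = 0.00314), a call lost under 2 of 20 alternatives. Of 6 glial or glioma markers, VIM, NES, CD44 and SOX2 were at or above 1 FPKM in every group, while the astrocyte markers GFAP and S100B stayed below a group mean of 1 FPKM. The summed level of this list was 4418 to 4543 FPKM in sh-Luci-3d, 4528 to 4836 in sh-Ptbp1-3d and 1352 to 1477 in sh-Ptbp1-7d. VIM made up most of it, with means of 4168, 4381 and 1169 FPKM in the same order of groups. CD44 was also lower at 7 dpi (182.0, 165.6 and 62.3 FPKM). NES was at 40.5, 45.9 and 36.5 FPKM, while SOX2 went the other way (105.7, 124.5 and 144.8 FPKM). Of 6 neuronal markers, 2 were at or above 1 FPKM in sh-Luci-3d and sh-Ptbp1-7d and 3 in sh-Ptbp1-3d, and the list summed to 263.9 to 315.0, 333.1 to 353.0 and 153.7 to 162.0 FPKM. This sum was mostly TUBB3 (means of 261.3, 316.9 and 118.2 FPKM), while MAP2, a marker of mature neurons, was at 22.4, 20.3 and 38.9 FPKM, with all 7 dpi libraries above those of 3 dpi. Of 6 immune or blood markers none had a group mean of 1 FPKM or more, AIF1 and CD3E were listed at 0 in all 9 libraries, and the list summed to 0.454 to 1.18 FPKM. The part of these shifts in the results on the members was not tested. Of the 9 libraries 2 stood apart. sh-Ptbp1-3d replicate 3 had STMN2 at 11.5 FPKM and DCX at 2.15 FPKM, while STMN2 was listed at 0 in the other 8 libraries. sh-Luci-3d replicate 3 lay farthest from its group over the members, by a median of 0.264 on the log2 scale, against 0.0721 to 0.176 for the other 8. In bulk RNA, fewer cells with a transcript and less of it per cell cannot be told apart.

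The members differed widely in level. In sh-Luci-3d PPP2R1A was highest, with a mean of 63.8 FPKM, followed by STK17A (59.1), DAPK3 (44.3), PPP2CA (43.2) and PPP2CB (38.1), and each of these overlapped its neighbour. A gap then separated PPP2R1B (9.31 FPKM) from both sides, PPP2R2B (5.03) and STK17B (4.58) overlapped, and DAPK2 (1.85) and DAPK1 (0.351) lay below with no overlap. The order in sh-Ptbp1-3d was the same. In sh-Ptbp1-7d DAPK3 (51.3 FPKM) and PPP2CB (46.8) stood above STK17A (45.1) and PPP2CA (37.8). DAPK3, PPP2CB and STK17A overlapped each other as neighbours, while PPP2CB and PPP2CA libraries did not overlap. DAPK1 was last in all 3 groups.

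**Figure D1:**
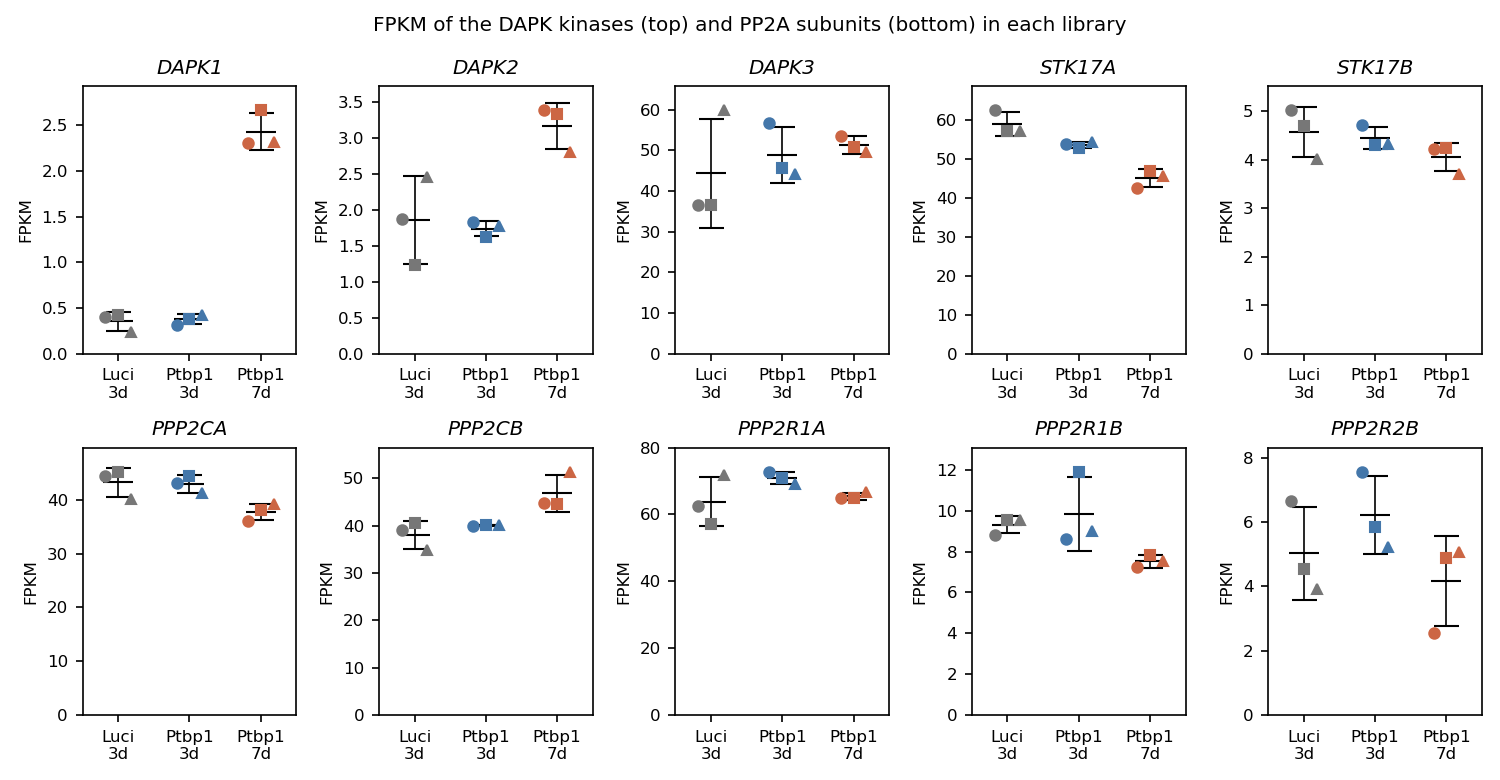
FPKM (vertical axis, from 0) of each member in the 9 libraries by group (horizontal axis), with circles, squares and triangles for replicates 1, 2 and 3 and bars for the mean ± SD. The sh-Ptbp1-7d libraries lie above all others for DAPK1 (2.31 to 2.67 FPKM) and DAPK2 (2.80 to 3.38 FPKM) and below all others for STK17A (42.6 to 47.0 FPKM).

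The first question was whether the kinases and the phosphatase moved by 3 dpi, when PTBP1 mRNA was already lower. At 3 dpi, knockdown against control, 0 of 10 members passed an FDR of 0.05, with or without a fold change above 2, in limma on log2(FPKM + 0.1), and 0 had an unadjusted p under 0.05. Over all genes tested, 0.0129% passed both thresholds, 0.0322% passed the FDR alone and 7.24% had such an unadjusted p. The groups did not overlap for 1 member, STK17A, against 10.8% of all genes. STK17A was at 62.6, 57.2 and 57.3 FPKM in sh-Luci-3d and at 54.0, 52.8 and 54.4 in sh-Ptbp1-3d, a log2 fold change of -0.13 (95% interval -0.29 to 0.02, limma adjusted p = 0.743). The median log2 fold change of the members was 0.071, beside 0.00996 for all genes.

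The intervals at 3 dpi differed in width. For PPP2CA the log2 fold change was -0.01 (95% interval -0.18 to 0.16), and for PPP2CB it was 0.08 (-0.11 to 0.26). For DAPK1 the interval ran from -0.39 to 0.57 around 0.09, and for PPP2R2B from -0.28 to 0.92 around 0.32. A change above 2-fold lay outside each of these intervals, with PPP2R2B coming closest to it. Without sh-Luci-3d replicate 3, which had the highest DAPK3 value of all 9 libraries (59.8 FPKM), DAPK3 passed with a log2 change of 0.41 (adjusted p = 0.0448 in limma) and PPP2R1A with 0.25 (adjusted p = 0.0418). In that setting 993 genes passed the FDR, 6.37% of those tested, against 5 with all libraries, and 59 passed both thresholds, against 2. Of the 64 tested genes of the pathway lists 5 then passed the FDR, against 0, so the counts at 3 dpi rest on this library.

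Between 3 and 7 dpi of PTBP1 knockdown the 2 calmodulin-regulated kinases of the family, DAPK1 and DAPK2, rose, and no member fell at the FDR of 0.01. DAPK1 was the 1 of 10 members past both thresholds, more than 2-fold with an FDR under 0.01, which 14.2% of all genes passed. DAPK1 and DAPK2 passed the FDR alone, 2 of 10 members beside 35.8% of all genes. The groups did not overlap for 9 of 10 members, the exception being DAPK3, beside 62.3% of all genes. An unadjusted p under 0.05 was found for 7 of 10, beside 56.3%. The median log2 fold change of the members was -0.12, beside 0.09 for all genes.

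DAPK1 (ENSG00000196730.12) lies on chromosome 9 from 87497228 to 87708633, plus strand. It was at 0.400, 0.417 and 0.237 FPKM in sh-Luci-3d, at 0.316, 0.383 and 0.423 in sh-Ptbp1-3d and at 2.31, 2.67 and 2.32 in sh-Ptbp1-7d. Each library of 7 dpi thus exceeded each library of 3 dpi, and the groups of 3 dpi overlapped. From 3 to 7 dpi of knockdown its log2 fold change was 2.42 (SE 0.219, adjusted p = 7.16e-06 in limma), a 5.36-fold difference in FPKM + 0.1, which understates the change of a low gene. The call was kept under 20 of 20 alternatives, with log2 fold changes from 1.32 to 2.68. No 50-base stretch of its annotated transcripts occurs in those of another gene.

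DAPK2 (ENSG00000035664.11) lies on chromosome 15 from 63907036 to 64072033, minus strand. It was at 1.87, 1.24 and 2.46 FPKM in sh-Luci-3d, at 1.82, 1.62 and 1.77 in sh-Ptbp1-3d and at 3.38, 3.32 and 2.80 in sh-Ptbp1-7d. The 7 dpi libraries were again above all others, and the sh-Luci-3d libraries spread most. Its log2 fold change from 3 to 7 dpi was 0.83 (SE 0.211, adjusted p = 0.00763 in limma). The call was lost under 13 of 20 alternatives, where the adjusted p reached 0.032, while the log2 fold change stayed between 0.60 and 0.95.

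The other kinases did not pass. DAPK3, a kinase without the calmodulin-binding segment that acts on myosin, was at 36.5, 36.6 and 59.8 FPKM in sh-Luci-3d, 56.8, 45.7 and 44.2 in sh-Ptbp1-3d and 53.6, 50.7 and 49.5 in sh-Ptbp1-7d. Its groups overlapped throughout, with a log2 fold change from 3 to 7 dpi of 0.08 (95% interval -0.31 to 0.46) whose sign turned under median-ratio scaling. STK17A (chromosome 7, 43582758 to 43650713) went from 54.0, 52.8 and 54.4 FPKM to 42.6, 47.0 and 45.8, a log2 change of -0.25 (adjusted p = 0.0134 in limma, outside the threshold of 0.01 but within it under 5 of 20 alternatives). It overlaps COA1 on the opposite strand, and whether fragments were counted by strand is not given in the sources used here. STK17B was at 4.72, 4.31 and 4.33 FPKM at 3 dpi and 4.21, 4.24 and 3.71 at 7 dpi (log2 fold change -0.13, limma adjusted p = 0.374).

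**Figure D2:**
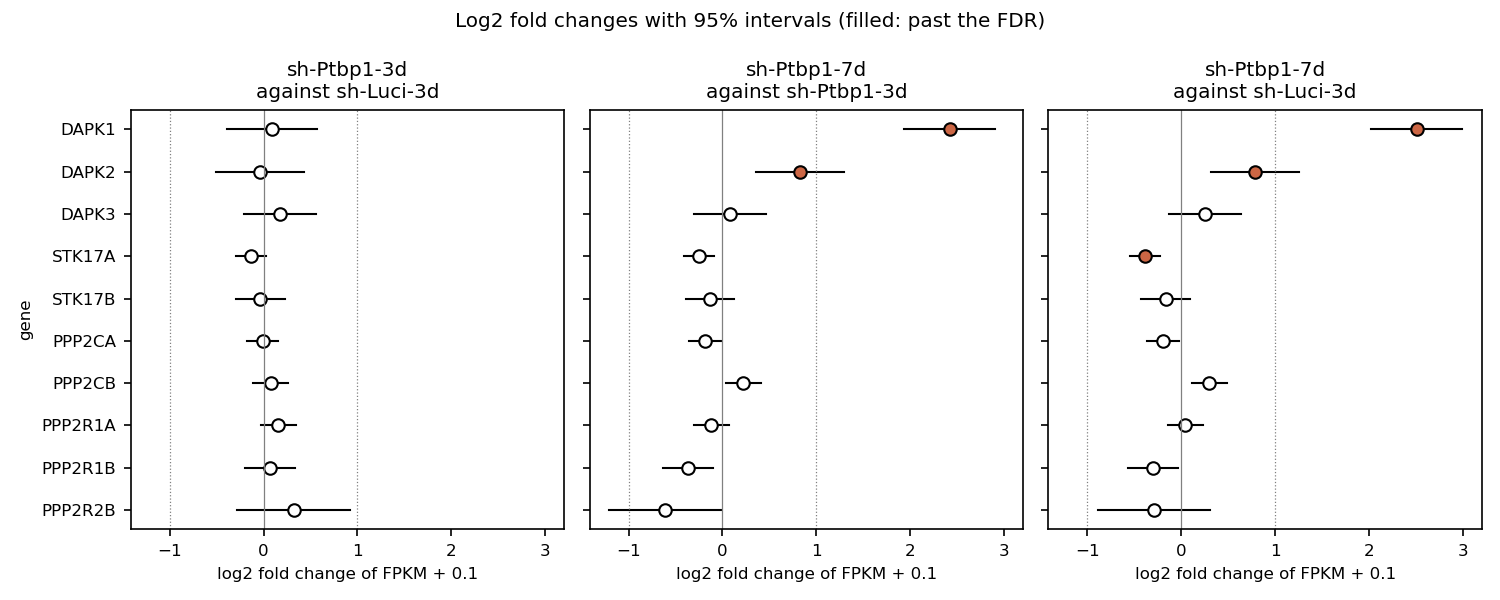
Log2 fold change of FPKM + 0.1 (horizontal axis) of each member (vertical axis) in the 3 comparisons, with 95% intervals from limma, filled points past the FDR of the comparison and dotted lines at a 2-fold change. DAPK1 stands alone beyond the dotted line at 2.42 and 2.51 in the comparisons with sh-Ptbp1-7d, and no point is filled at 3 dpi.

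Of the PP2A subunits, 0 of 5 passed the FDR of 0.01 between 3 and 7 dpi. PPP2CA and PPP2CB are near-identical catalytic proteins encoded by separate genes. PPP2CA (chromosome 5, 134194334 to 134226142) was at 44.4, 45.2 and 40.1 FPKM in sh-Luci-3d, 43.1, 44.5 and 41.2 in sh-Ptbp1-3d and 36.1, 38.0 and 39.2 in sh-Ptbp1-7d. PPP2CB was at 39.0, 40.5 and 34.7 FPKM in sh-Luci-3d, 40.0, 40.2 and 40.1 in sh-Ptbp1-3d and 44.8, 44.4 and 51.3 in sh-Ptbp1-7d. At 7 dpi every PPP2CA value thus lay below, and every PPP2CB value above, those of the other groups. From 3 to 7 dpi of knockdown the log2 fold changes were -0.19 for PPP2CA (95% interval -0.35 to -0.02, limma adjusted p = 0.0635) and 0.22 for PPP2CB (0.03 to 0.41, adjusted p = 0.0502).

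Set against each other within a library, a measure that does not depend on scaling between libraries, the order of these catalytic subunits differed between times. PPP2CB per PPP2CA was 0.878, 0.895 and 0.866 in sh-Luci-3d, 0.928, 0.903 and 0.971 in sh-Ptbp1-3d and 1.24, 1.17 and 1.31 in sh-Ptbp1-7d. The 3 groups did not overlap, and PPP2CB exceeded PPP2CA in 3 of 3 libraries at 7 dpi and in 0 of 6 at 3 dpi. On the log2 scale the ratio differed by 0.41 (standard error 0.057) from 3 to 7 dpi of knockdown, and by 0.09 (standard error 0.034) between knockdown and control at 3 dpi. The two-sided exact permutation p was 0.1 in both, which is the smallest that 3 against 3 libraries can give, and 0.15 after adjustment over the 9 ratio and share tests. The difference at 7 dpi was 0.37 to 0.45 when any 1 library was left out. The summed level of both genes went from 83.4, 85.7 and 74.8 FPKM to 83.0, 84.7 and 81.3 and to 80.8, 82.5 and 90.5 in the same order of groups, and the groups overlapped. PPP2CA shares 7.82% of its 50-base stretches with other genes, among them the overlapping entry AC104109.3 at a mean of 1.87 FPKM. PPP2CB shares 1.56% of its own. How fragments from shared stretches were counted is not given in the sources used here, so the effect on either level is unknown.

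The scaffolds were unequal in level. PPP2R1A, the main scaffold (chromosome 19, 52190039 to 52229533) was at 62.6, 57.2 and 71.7 FPKM in sh-Luci-3d, 72.7, 71.0 and 69.2 in sh-Ptbp1-3d and 65.0, 64.8 and 66.6 in sh-Ptbp1-7d. Its log2 fold change from 3 to 7 dpi was -0.12 (95% interval -0.31 to 0.07). PPP2R1B (chromosome 11, 111726908 to 111766427) was at 8.83, 9.55 and 9.55 FPKM, then 8.62, 11.9 and 8.998, then 7.22, 7.85 and 7.53. Every PPP2R1B value at 7 dpi was below those of 3 dpi, at -0.37 on the log2 scale from 3 to 7 dpi of knockdown (limma adjusted p = 0.0270), and it overlaps SIK2 on the opposite strand. A locus assembled from the reads at the 5′ end of PPP2R1B, from 111766451 to 111766982, had group means of 0.211 to 0.241 FPKM. Its SD was 0.0263 in sh-Luci-3d, 0.171 in sh-Ptbp1-3d and 0.225 in sh-Ptbp1-7d, so a change in it cannot be judged. PPP2R1B per PPP2R1A was 0.147 ± 0.0177 in sh-Luci-3d, 0.139 ± 0.0256 in sh-Ptbp1-3d and 0.115 ± 0.0053 in sh-Ptbp1-7d (SD, n = 3 each). sh-Ptbp1-7d lay apart from sh-Luci-3d in this ratio (two-sided exact permutation p = 0.1, the smallest possible), while it overlapped sh-Ptbp1-3d. PPP2R2B (chromosome 5, 146581146 to 147084784), the regulatory subunit, was at 6.65, 4.53 and 3.90 FPKM in sh-Luci-3d, 7.56, 5.85 and 5.23 in sh-Ptbp1-3d and 2.55, 4.89 and 5.08 in sh-Ptbp1-7d. It had the widest spread of the PP2A members, and its log2 fold change from 3 to 7 dpi was -0.61 (95% interval -1.21 to -0.01, limma adjusted p = 0.0838).

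**Figure D3:**
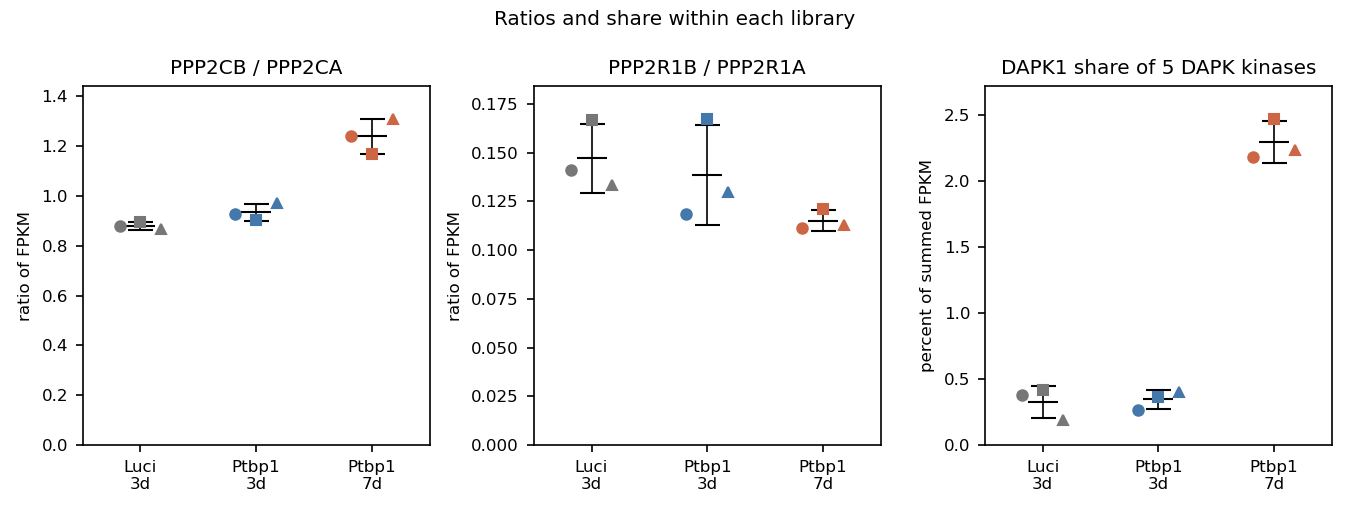
PPP2CB per PPP2CA and PPP2R1B per PPP2R1A (ratios of FPKM) and the DAPK1 percentage of the summed FPKM of the 5 kinases (vertical axes, from 0) in each library by group, with bars for the mean ± SD. PPP2CB per PPP2CA passes 1 in the 3 sh-Ptbp1-7d libraries alone, and the DAPK1 share goes from 0.328% and 0.345% to 2.29%.

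The summed level of the kinases overlapped between groups, while DAPK1 held a larger share of it at 7 dpi. The 5 kinases summed to 110.1 ± 12.3 FPKM in sh-Luci-3d, 109.2 ± 7.34 in sh-Ptbp1-3d and 106.1 ± 1.94 in sh-Ptbp1-7d (SD, n = 3 each). DAPK1 made up 0.376%, 0.417% and 0.191% of this sum in sh-Luci-3d, 0.268%, 0.366% and 0.402% in sh-Ptbp1-3d and 2.18%, 2.47% and 2.23% in sh-Ptbp1-7d. The 7 dpi libraries were apart from both groups of 3 dpi (two-sided exact permutation p = 0.1 each, the smallest possible). STK17A made up the largest share in sh-Luci-3d, 54.1%, and DAPK3 in sh-Ptbp1-7d, 48.4%, so that DAPK1 remained a minor transcript of the family.

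Against the control of 3 dpi, DAPK1 and DAPK2 were higher and STK17A lower in sh-Ptbp1-7d. Both comparisons of 7 dpi share the sh-Ptbp1-7d libraries, so their results are not independent. DAPK1 again was the 1 of 10 members past both thresholds, beside 14.6% of all genes, and 3 of 10 passed the FDR of 0.01 alone, beside 35.6%. The groups did not overlap for 6 of 10 members, beside 55.9%, and 6 of 10 had an unadjusted p under 0.05, beside 56.1%. The log2 fold change was 2.51 for DAPK1 (SE 0.219, adjusted p = 5.34e-06 in limma) and 0.79 for DAPK2 (SE 0.211, adjusted p = 0.00998 in limma, lost under 16 of 20 alternatives). STK17A fell by 0.39 on the log2 scale (SE 0.0719, adjusted p = 0.00112 in limma), and this call was kept under 20 of 20 alternatives. PPP2CB came closest among the PP2A members, with 0.30 (limma adjusted p = 0.0134), then PPP2CA with -0.19 (adjusted p = 0.0539) and PPP2R1B with -0.30 (adjusted p = 0.0594). PPP2CA passed under 3 of 20 alternatives and PPP2CB under 2. Without sh-Luci-3d replicate 3, DAPK3 passed the FDR with 0.49 (limma adjusted p = 0.00268), and DAPK2, at 1.01, joined DAPK1 past both thresholds.

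The other regulatory subunits decide where PP2A acts in the cell, and 13 of 14 listed genes were tested. None passed at 3 dpi. From 3 to 7 dpi of knockdown 1 rose, PPP2R5B, a B56 subunit known from neurons, and 1 fell, PPP2R5D, beside 20.3% of all genes rising and 15.5% falling. PPP2R5B was at 5.82, 6.38 and 8.60 FPKM in sh-Luci-3d, 6.73, 6.98 and 6.33 in sh-Ptbp1-3d and 14.7, 13.5 and 13.8 in sh-Ptbp1-7d. Its 7 dpi libraries were above all others, higher by 1.05 on the log2 scale (SE 0.133, adjusted p = 8.02e-05 in limma) against sh-Ptbp1-3d and 1.02 (adjusted p = 9.94e-05) against sh-Luci-3d. Over the alternatives these changes ranged from 0.95 to 1.16 and from 0.79 to 1.19, on both sides of 2-fold. The B56 genes together summed to 67.1 ± 2.095 FPKM in sh-Ptbp1-3d and 65.7 ± 0.711 in sh-Ptbp1-7d (SD, n = 3 each), and PPP2R5B made up a mean of 9.95% and 21.3% of them. PPP2R5D changed by -0.37 (limma adjusted p = 0.00585) against sh-Ptbp1-3d, a call lost under 7 of 20 alternatives. PPP2R3A, a calcium-binding subunit, fell against sh-Luci-3d, by 0.62 on the log2 scale (limma adjusted p = 0.00976, lost under 14 of 20 alternatives). The most abundant of the list, STRN4, PPP2R5C and PPP2R2A, did not pass in any comparison, with log2 fold changes of 0.28, -0.23 and 0.24 from 3 to 7 dpi of knockdown. The list's median was 0.04, beside 0.09 for all genes.

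Genes that assemble or inhibit PP2A moved in both directions. Of 13 listed and tested, 0 passed at 3 dpi, and from 3 to 7 dpi of knockdown 2 rose and 4 fell, beside 20.3% and 15.5% of all genes, with a list median of -0.02. CIP2A, an inhibitor of PP2A that is abundant in tumours, was at 10.2, 10.8 and 7.91 FPKM in sh-Luci-3d, 8.66, 9.29 and 8.66 in sh-Ptbp1-3d and 3.76, 4.28 and 3.17 in sh-Ptbp1-7d. It was below all other libraries at 7 dpi, with a log2 change of -1.24 (adjusted p = 3.76e-05 in limma), and was the gene of this list past both thresholds. ENSA, an inhibitor of PP2A in mitosis, changed by -0.52 (adjusted p = 0.000117), and SET, a further inhibitor, by -0.42 (adjusted p = 0.000833). PTPA, which helps to assemble active PP2A, changed by -0.56 (limma adjusted p = 0.00319). TIPRL, a binder of the catalytic subunits, and BOD1, an inhibitor of PP2A at kinetochores, rose by 0.30 and 0.59. The genes that fell thus include inhibitors and an activator. Against sh-Luci-3d 1 rose (BOD1) and 3 fell (CIP2A, ENSA and SET), beside 35.6% of all genes passing the FDR in either direction. PTPA and TIPRL lost their calls under 7 and 10 of 20 alternatives, and the other 4 kept theirs under all 20.

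Catalytic subunits of related phosphatases were taken for comparison. Of 9 tested, 0 passed at 3 dpi and 2 fell from 3 to 7 dpi of knockdown, beside 15.5% of all genes, with a median of -0.02. PPP1CA, of protein phosphatase 1, went from 121.7, 114.3 and 109.3 FPKM to 68.0, 64.6 and 73.5 (log2 fold change -0.74, limma adjusted p = 0.000377). PPP3CA, of the calcium-dependent phosphatase calcineurin, changed by -0.56 (limma adjusted p = 0.00445, lost under 8 of 20 alternatives). PPP1CB and PPP4C, the others of the 3 most abundant, had 0.21 and 0.08 and did not pass. Both genes that passed did so against sh-Luci-3d as well, where PPP3CA lost its call under 11 of 20 alternatives and PPP1CA under 1. In that comparison 35.6% of all genes passed the FDR in either direction.

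Partners and substrates of the DAPK kinases were mostly lower at 7 dpi. Their list was chosen with earlier results of these data known, so its counts are given as a description. Of 19 listed genes 18 were tested, and MYL9 was left out for low values. None passed at 3 dpi, and from 3 to 7 dpi of knockdown 1 rose and 11 fell, with a median of -0.47, beside 0.09 for all genes and 15.5% of all genes falling. Against sh-Luci-3d 1 rose and 10 fell, beside 35.6% of all genes passing the FDR in either direction. Calmodulin activates DAPK1 and DAPK2, and of its genes CALM2 changed by -0.41 (limma adjusted p = 0.00301, lost under 8 of 20 alternatives), while CALM3 had 0.02 (adjusted p = 0.875).

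Among genes that control the stability of DAPK1, HSP90AA1 fell from 277.3, 292.8 and 274.4 FPKM to 152.6, 154.6 and 146.2 (log2 fold change -0.90, limma adjusted p = 7.99e-06). The ubiquitin ligases STUB1 and MIB1 changed by -0.90 and -0.60 (adjusted p = 0.00123 and 0.00801). KLHL20, which brings DAPK1 to a cullin ligase, rose by 0.51 (limma adjusted p = 0.00457). MIB1 and KLHL20 lost their calls under 10 and 7 of 20 alternatives, and STUB1 under 1. The myosin light chain genes MYL12A and MYL12B fell by 0.48 and 0.50, the autophagy gene BECN1 by 0.42, TSC2 by 0.45, and the binding partners of DAPK3 AATF and PAWR by 0.77 and 0.64. TSC2 lost its call under 2 of 20 alternatives and PAWR under 1. RPL13A, a ribosomal protein gene and the most abundant of the list, had -0.40 and did not pass (limma adjusted p = 0.015).

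**Figure D4:**
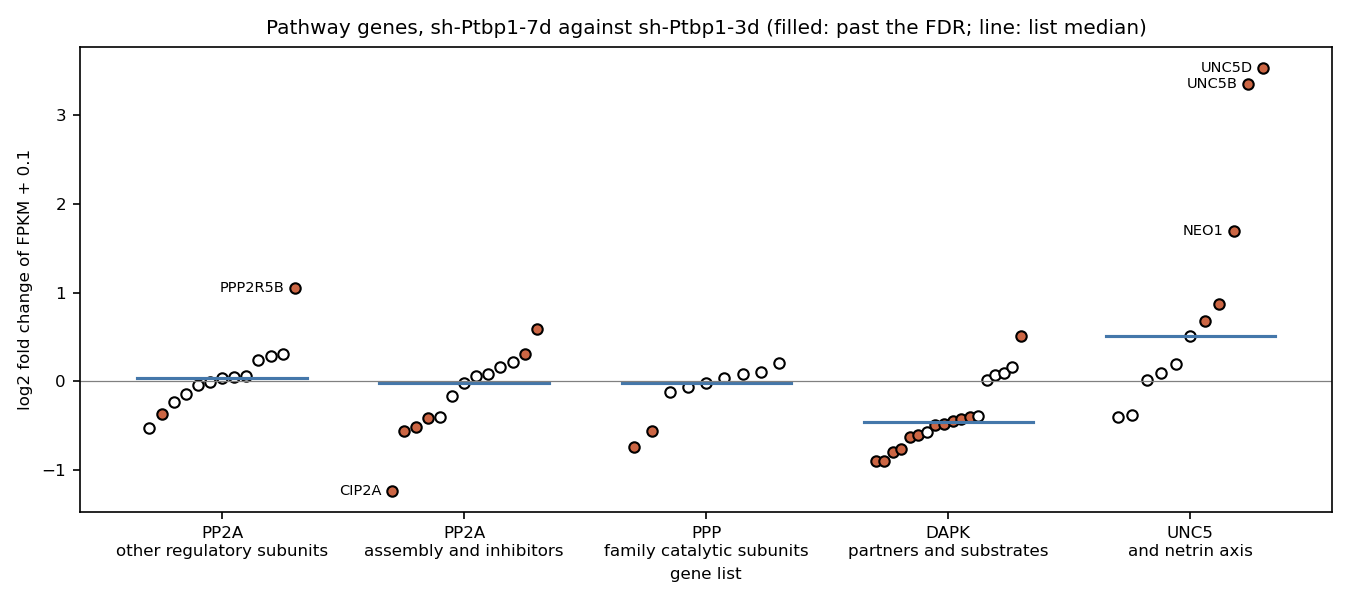
Log2 fold change of FPKM + 0.1 (vertical axis) from 3 to 7 dpi of knockdown of each tested gene of the 5 lists (horizontal axis), filled where past an FDR of 0.01, with blue lines at the list medians and names for genes past both thresholds. The partners of DAPK kinases lie mostly below 0 (median -0.47) and the UNC5 and netrin genes mostly above (median 0.51).

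On the UNC5 and netrin axis, upstream of DAPK1 and PP2A, 11 of 13 listed genes were tested, and UNC5A and DCC were left out for low values. None passed at 3 dpi. From 3 to 7 dpi of knockdown 5 rose and 0 fell, beside 20.3% of all genes rising. The list's median in this comparison was 0.51, and 0.19 without the filter on low values. Against sh-Luci-3d 5 rose and 0 fell as well, beside 35.6% of all genes passing the FDR in either direction. The study chose UNC5B on these libraries and came to NTN4 by mining the same RNA-seq data. The rises of UNC5B and NTN4 are thus not independent evidence, and the list was chosen with earlier results of these data known. UNC5D, a second receptor of the family, was at 0.204, 0.251 and 0.116 FPKM in sh-Luci-3d, 0.189, 0.315 and 0.203 in sh-Ptbp1-3d and 4.04, 4.07 and 3.16 in sh-Ptbp1-7d. Its 7 dpi libraries were far above all others, with a log2 change of 3.53 (adjusted p = 1.18e-06 in limma), near the 3.35 of UNC5B (adjusted p = 7.86e-08). NEO1, a receptor for netrins and RGM proteins, went from 0.179, 0.159 and 0.359 FPKM in sh-Ptbp1-3d to 0.986, 0.914 and 0.926 in sh-Ptbp1-7d (log2 fold change 1.70, limma adjusted p = 0.000738). The ligand gene NTN4 rose by 0.87, and MAGED1, whose product binds UNC5 receptors, by 0.68, while NTN1 was at 2.12, 2.01 and 2.20 FPKM at 3 dpi and 2.52, 2.22 and 1.74 at 7 dpi.

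The shares of the UNC5 receptors differed between 3 and 7 dpi of knockdown, and were not tested. UNC5C held 92.4% ± 1.98 of their summed FPKM in sh-Ptbp1-3d and 44.8% ± 3.43 in sh-Ptbp1-7d (SD, n = 3 each), although its own log2 fold change of -0.38 did not pass (limma adjusted p = 0.0638). UNC5B went from 4.32% to 33.4% and UNC5D from 2.16% to 21.8% of the sum. The calls of UNC5B, UNC5D, NTN4 and MAGED1 were kept under 20 of 20 alternatives in both comparisons with sh-Ptbp1-7d, and NEO1 under 19 of 19.

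**Figure D5:**
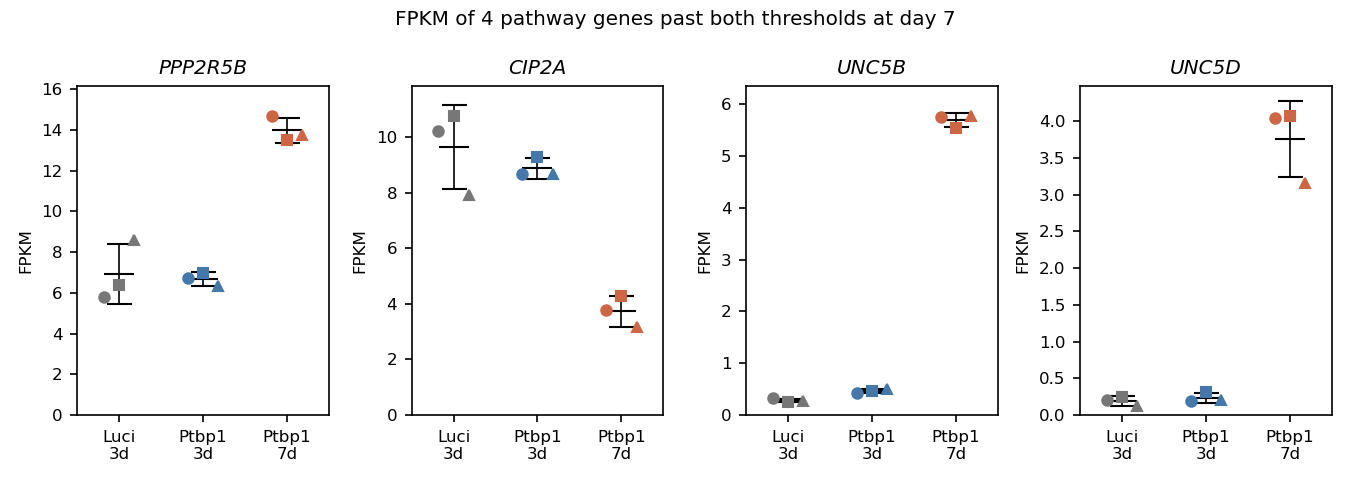
FPKM (vertical axis, from 0) of PPP2R5B, CIP2A, UNC5B and UNC5D in the 9 libraries by group (horizontal axis), with circles, squares and triangles for replicates 1, 2 and 3 and bars for the mean ± SD. In each panel the sh-Ptbp1-7d libraries lie apart from both groups of 3 dpi, below them for CIP2A (3.17 to 4.28 FPKM) and above them for the others.

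The genes most like a member were taken as the 3 with the highest Pearson r of log2(FPKM + 0.1) over the 9 libraries, among the 11339 named genes averaging 1 FPKM or more. The libraries fall into groups, so r mainly reflects the difference between 7 and 3 dpi, and it is given as a description. For DAPK1 these were ACP5 (r = 0.997), PCDHB9 and TOX3 (0.996 each). For DAPK2 they were NAT9 (0.979), PTK7 (0.979) and GPATCH3 (0.974). For DAPK3 they were KEAP1, MECR and CUEDC1 (0.974 to 0.970), for STK17A CTNNAL1, BFSP1 and MFSD1 (0.978 to 0.976), and for STK17B SSH2, STXBP5 and FRYL (0.969 to 0.953). Among the PP2A members, PPP2CA was most like HSP90AB1, MBNL2 and GET1 (0.989 to 0.981) and PPP2CB like METAP1D, ZNF571 and SLC46A3 (0.983 to 0.956). PPP2R1A was most like MFSD3, CAMK1 and TPGS1 (0.977 to 0.966), PPP2R1B like SPACA9, ATP5MC2 and SYNCRIP (0.960 to 0.919) and PPP2R2B like ATXN10, UGP2 and CCDC127 (0.922 to 0.889). PPP2R2B thus had the loosest company, as it had a wide spread within groups.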

How the data were processed

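RNA of U251 cells was sequenced in 9 libraries, grouped by their labels. From filtered Illumina HiSeq reads the authors made and deposited gene-level FPKM. HISAT2 and GRCh38 are named in the submitters' processing notes, and the counting program is not given in the sources used here. The authors also deposited a table of another kind, the positions of 2363 assembled loci, used only to look for loci near the members. The FPKM values show no whole-read steps, so the depth is unknown and no counting interval can be given. They sum to 367412 to 404922 per library.

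Log2(FPKM + 0.1) of the 15551 entries with a mean of at least 0.1 FPKM was fitted with limma 3.58.1 in R 4.3.3, all 9 libraries in one model with an intensity trend, with the Benjamini-Hochberg adjustment over these entries. Thresholds were more than 2-fold and an FDR under 0.05 (sh-Ptbp1-3d against sh-Luci-3d) or 0.01 (comparisons with sh-Ptbp1-7d). Ratios and shares within libraries were tested with two-sided exact permutation tests in scipy 1.17.1. The fit was tested on simulated data. Positions are GENCODE v29 on GRCh38, and promoter sequences are RefSeq GRCh38.p14.

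Named genes are the 10 members, PTBP1, the genes of 5 lists past the FDR, the 3 most abundant genes of each list and the 3 genes most like each member. CALM3, NTN1, MYL9, UNC5A and DCC were named after their values were seen, as were the overlapping genes. A listed gene past the FDR and a marker gene are not reported here by name, but are included in the counts of their lists. The members and lists were chosen with earlier results of these data known. Alternatives were other pseudocounts, filters and scalings, 2 groups alone, no trend, the replicate block, each library left out and, added after seeing the data, a spline (5 degrees of freedom) removing GC and length effects from each library.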

Additional observations from a re-analysis of the deposited data

How the results depend on the processing

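DAPK1 passed both thresholds in the comparisons with sh-Ptbp1-7d under 20 of 20 alternatives, and STK17A passed the FDR against sh-Luci-3d under 20 of 20. With a pseudocount of 1, listed genes past both thresholds were 3 in each comparison with sh-Ptbp1-7d, against 5. PPP2R5B (log2 fold changes of 0.96 and 0.93) and NEO1 (0.66 and 0.69) were then under 2-fold but still passed the FDR. Leaving out 1 library, members past both thresholds for 7 dpi against control were 1 to 2. The correction for GC content and transcript length brought STK17A, PPP2CA, PPP2R1A and PPP2R1B past the FDR from 3 to 7 dpi of knockdown, and PPP2CA and PPP2CB against sh-Luci-3d. With this correction 48% of all genes tested passed the FDR in each of these comparisons, beside 35.8% and 35.6% without it. TPM brought PPP2CB past the FDR in both comparisons with sh-Ptbp1-7d (limma adjusted p = 0.00996 and 0.00416). Median-ratio scaling did so for STK17A and PPP2R1B from 3 to 7 dpi and PPP2CA against control, and quantile normalization for PPP2R1B. Signs turned for members that had not passed. Median-ratio scaling gave -0.0111 for DAPK3 (from 3 to 7 dpi) and -0.0583 for PPP2R1A (7 dpi against control). The correction gave DAPK3 -0.0323, -0.0105 and -0.0428 in the 3 comparisons, STK17B 0.0102 and PPP2CA 0.0242 at 3 dpi, and PPP2R1A -0.164 against sh-Luci-3d. Leaving out 1 library, log2 fold changes at 3 dpi ranged from -0.108 to 0.202 for DAPK1, -0.289 to 0.179 for DAPK2, -0.123 to 0.035 for STK17B, -0.0621 to 0.024 for PPP2CA and -0.078 to 0.152 for PPP2R1B, and for 7 dpi against control from -0.034 to 0.129 for PPP2R1A and -0.459 to 0.0232 for PPP2R2B. The cause was not tested. TPM moved the median of all genes from 3 to 7 dpi of knockdown to 0.19, from 0.09, and turned the list medians of PP2A assembly and inhibitor genes and of related catalytic subunits to 0.08 each. The median of the other PP2A regulatory subunits turned to -0.09 under quantile normalization and -0.11 under the correction. Deviations of same-numbered libraries correlated at -0.03 to 0.05, and those of differently numbered libraries at -0.07 to 0.06. No pairing by number was thus seen, but whether libraries with the same number share a culture is not given. With the number as a replicate block, 2140 genes passed both thresholds from 3 to 7 dpi of knockdown, against 2211, and DAPK2 (limma adjusted p = 0.0108 and 0.0134) and CALM2 (0.0106 and 0.0165) no longer passed the FDR in the comparisons with sh-Ptbp1-7d, nor PTBP1 at 3 dpi (0.0583). The block changed no other call of the members, PTBP1 and the listed genes past the FDR. The depth of the libraries is unknown, which limits what can be said of DAPK1 below 1 FPKM.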
